A study of Mus musculus with 40 samples.

Results

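The 40 genes described here encode the transcription factor NRF2 (gene Nfe2l2), its inhibitor KEAP1, and enzymes that make or use glutathione and thioredoxin, remove superoxide and peroxides, conjugate electrophiles, supply NADPH or store iron. They were taken by gene symbol from the platform annotation of the array, with the brightest row kept where a gene had several. Of the 40 genes, 36 had a named row among 19505 named genes, and array values of the peroxiredoxins Prdx5 and Prdx6, and of G6pdx and Tkt, were not analysed here. A gene was tested when its log2 signal exceeded 4.60, the 30th percentile of all values, on at least 4 arrays. In all, 14978 genes met this rule, 34 of the 36 genes with a row among them, and the exceptions were Nfe2l2 and Osgin1.

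Total RNA from 5 brain regions of mice aged 8 to 10 weeks was hybridised to 40 Affymetrix arrays, to describe how expression in brain areas differs between mice with different forms of Dio2. In the Ala groups, genotype Ala92D2HY, residue 92 of the protein that Dio2 encodes, a deiodinase that activates thyroid hormone, was alanine. In the Thr groups, genotype Thr92D2HY, it was threonine. There were 4 Ala and 4 Thr arrays for each of amygdala, cerebellum, hippocampus, prefrontal cortex and striatum. All mice are given a C56BL/6 background, ate chow, lived at room temperature in a 12-h light cycle, and received no other treatment named in the labels. No label links an array to a mouse, and the p-values therefore reflect spread among arrays alone, part of which may be technical.

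NRF2 is held in the cytoplasm by KEAP1, which presents it for degradation. Oxidants and electrophiles modify KEAP1, and NRF2 then accumulates, enters the nucleus and, with small MAF proteins, binds antioxidant response elements in its target genes. Glutathione and thioredoxin are the main thiol reductants of the cell, and both are regenerated with NADPH. In the brain, astrocytes are known for a strong NRF2 response and for exporting glutathione, whose precursors neurons take up.

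To show where an antioxidant response element occurs in these genes, the core letters TGACNNNGC were searched on both strands of RefSeq promoter windows of GRCm38.p6, each 300 bases long from 250 bases upstream of a gene start to 50 downstream. Of the 40 genes, 34 had a window, and 10 of them (29.4%) held the core: G6pdx, Gclm, Gstm5, Me1, Nfe2l2, Pgd, Prdx1, Sod1, Srxn1 and Txnrd1. Among all 27025 genes with a window, 14% held it. A gene could have more than 1 window and counted when any of them held the core. By window the shares were 22.7% of 44 for these genes and 12.4% of 32851 for all genes. The following stretches are shown for the regulator and for 6 genes whose levels are described below, in the direction of transcription, with the core or its reverse complement in capitals.
Nfe2l2: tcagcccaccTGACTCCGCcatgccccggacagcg
Gclm: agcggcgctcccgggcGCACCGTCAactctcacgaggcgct
Txnrd1: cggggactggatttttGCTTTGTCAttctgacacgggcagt
Gstm5: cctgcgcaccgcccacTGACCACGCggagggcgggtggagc
Prdx1: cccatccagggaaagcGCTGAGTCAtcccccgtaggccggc
Sod1: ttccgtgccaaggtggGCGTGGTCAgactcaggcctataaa
Me1: tcggccgatgccgccgTGACTCAGC
These stretches lie at chr2:75704879-75704913 (Nfe2l2, minus strand), chr3:122245407-122245447 (Gclm, plus strand), chr10:82859098-82859138 (Txnrd1, plus strand), chr3:107895796-107895836 (Gstm5, plus strand), chr4:116685450-116685490 (Prdx1, plus strand), chr16:90220690-90220730 (Sod1, plus strand) and chr9:86695912-86695936 (Me1, minus strand). The Txnrd1 stretch lies inside the gene, which is listed from position 82833951, so its window belongs to a later start. The Prdx1 and Me1 cores both read TGACTCAGC and so also hold the AP-1 letters TGACTCA. The same core followed by an A occurred in Pgd and Txnrd1, 5.88% of the 34 genes, against 3.45% of all genes. By window this was 4.55% against 3.04%. A match describes these letters and is not a measured binding site, and a window without a match says only that the letters are not in it.

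Signals are given as log2 values on which the authors had run RMA, and levels of different genes are not compared. Negative control rows had medians of 6.2 to 6.35 on the cerebellum arrays and 5.73 to 6.02 on the arrays of the other regions. Striatal, cerebellar and hippocampal marker genes identified those dissections: 6 of 6 striatal markers were higher in striatum, 8 of 8 granule and Purkinje cell markers in cerebellum and 7 of 8 hippocampal markers in hippocampus, each by at least 1 log2 unit with an adjusted p under 0.05. Amygdala had no marker list of its own, and in prefrontal cortex 4 of 7 neocortical and 5 of 5 olfactory bulb markers were higher. A marker score is the mean log2 level of a list after centring on the region. Arrays that stood apart were Ala amygdala 1, with striatal and cerebellar scores of 2.96 and 2.34, and Ala amygdala 2, with a choroid plexus score of 2.06. Others were Thr hippocampus 23 and 24, with thalamus scores of 1.75 and 1.11, Ala striatum 36, with a choroid plexus score of 2.78, and Thr striatum 37, with a neocortex score of -1.43. These 6 arrays were picked by inspection of scores and residual spread, with no fixed limit, and other arrays had scores as large. A fixed limit of 2 in size left out 7 arrays: Ala amygdala 1 and 2, Thr hippocampus 24, Ala striatum 36, and, with choroid plexus scores of -2.03, -2.09 and 2.19, Ala cerebellum 10 and 12 and Ala hippocampus 17. Each of the 12 region differences of at least 1 log2 unit described below kept its direction and its call under both choices. Genotype differences are given without such arrays where they moved by over 1.5 times. In bulk tissue, fewer cells of a type and less RNA per cell cannot be told apart.

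The array signal for NRF2's own transcript was dim. Nfe2l2 ranged over the 40 arrays between 3.76 and 4.95, below the negative control median of every array. Its median was 4.10 in amygdala, 4.49 in cerebellum, 4.41 in hippocampus, 4.34 in prefrontal cortex and 4.57 in striatum. The array therefore shows no level of Nfe2l2 above background, and how well its probes respond was not checked. Osgin1, an NRF2 target that encodes an oxidative stress-induced growth inhibitor, was dimmer still in signal, between 2.25 and 3.83, and likewise showed no level above background. Keap1 was above the negative controls on all 40 arrays. Its 8 cerebellum arrays ran from 8.43 over a median of 8.62 to 8.90, against medians of 9.16 in amygdala, 9.21 in hippocampus, 8.99 in prefrontal cortex and 9.23 in striatum. Keap1 was lower in cerebellum than in the mean of the other regions by a log2 difference of -0.52 ± 0.10 (SE, limma, adjusted p = 1.81e-05).

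Between brain regions, these genes differed about as often as genes at large. An F-test over the 5 regions passed for 24 of the 34 genes tested (70.6%, limma, adjusted p under 0.05), against 68.8% of all 14978 genes. The limit of 4.60 for testing lies below the negative control medians, so all genes include dim ones, and shares were not matched for signal. The median distance between the highest and the lowest region mean was 0.754 log2 units for the 34 genes and 0.703 for all genes. In the contrast of each region with the mean of the other regions, 8 of the 34 genes (23.5%) passed in at least 1 region with an absolute log2 difference of at least 1, against 25% of all genes. Striatum held the highest mean for 13 of the 34 genes, against 25.2% of all genes, and cerebellum for 7, against 33.3% of all genes.

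**Figure D1:**
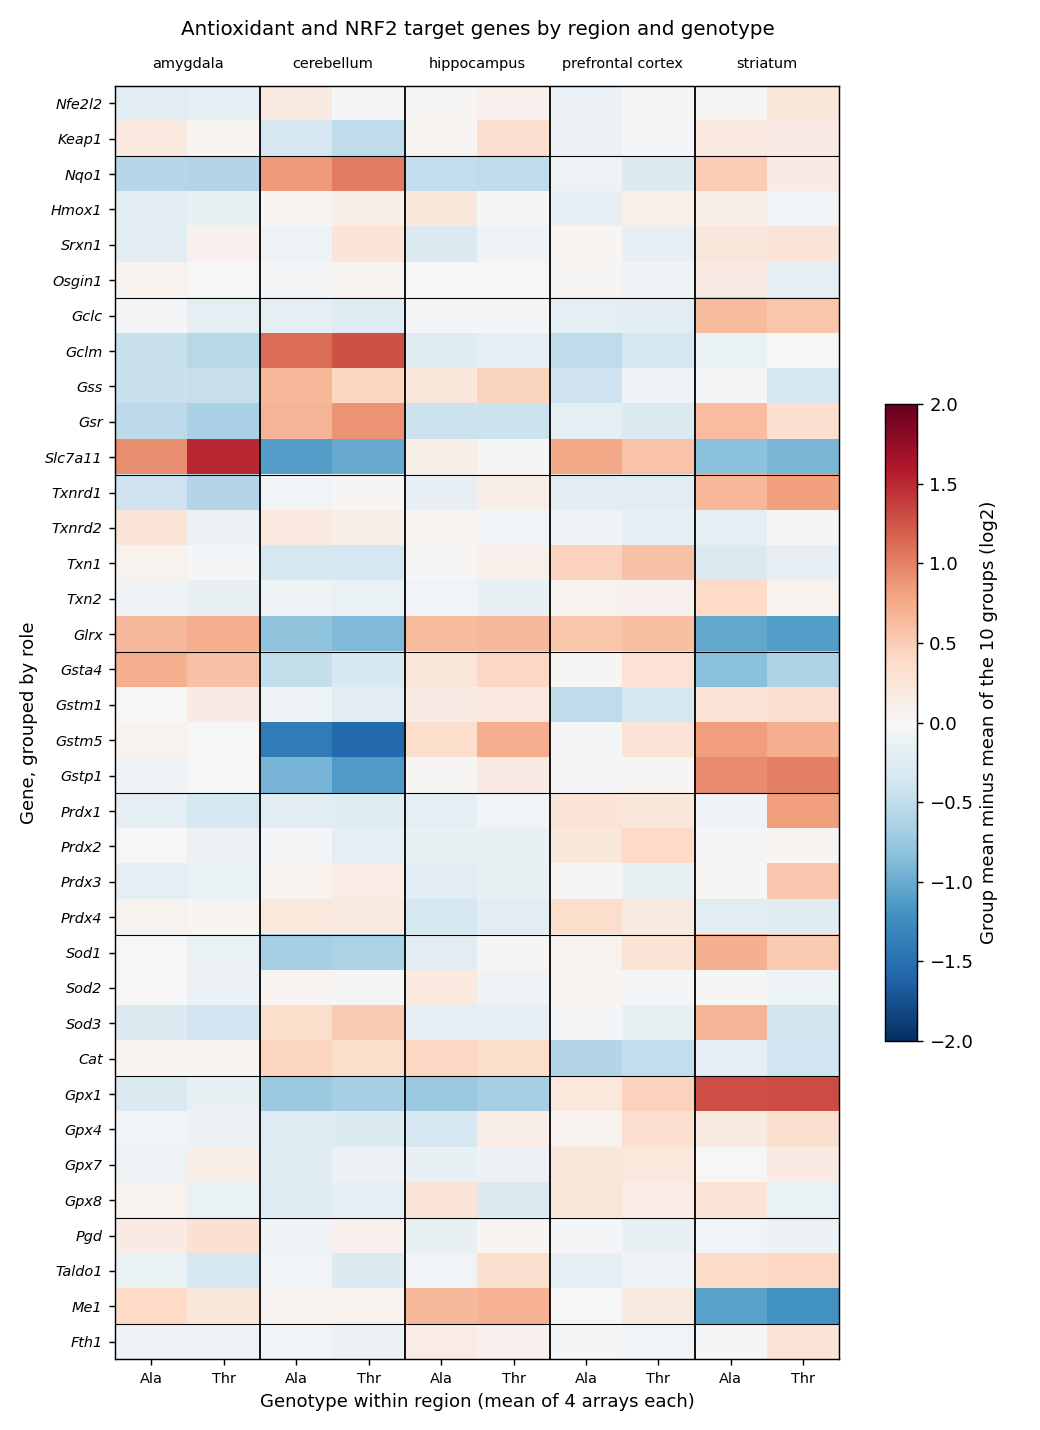
Each row is 1 of the 36 genes with a named row, grouped by role, and each column is the mean of 4 arrays, Ala left of Thr within a region; colour is the group mean minus the mean of the 10 groups on the log2 scale. Gclm and Gsr stand out as high in cerebellum, Gpx1 and Gstp1 in striatum and Slc7a11 in amygdala, in both genotypes.

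In glutathione synthesis and cystine supply, all 5 genes tested passed the F-test over regions, which 68.8% of all genes pass, and they peaked in different regions. Gclm, the modifier subunit of glutamate-cysteine ligase, ran from 12.60 over a median of 13.11 to 13.31 on the 8 cerebellum arrays, against 11.14 to 12.25 with a median of 11.50 on the 32 arrays of the other regions. No cerebellum array overlapped any other array. Gclm was higher in cerebellum by a log2 difference of 1.49 ± 0.09 (SE, adjusted p = 8.13e-18), a fold of 2.82. Gclc, the catalytic subunit of the same enzyme, was highest in striatum, where its 8 arrays ran from 10.47 to 11.00, against 9.68 to 10.44 elsewhere. Gclc was higher in striatum by 0.74 ± 0.09 on the log2 scale (adjusted p = 3.23e-09) and lower in cerebellum by -0.29 ± 0.09 (adjusted p = 0.00536), so the subunits of this ligase peaked in different regions. Gsr, which reduces oxidised glutathione with NADPH, passed in all 5 regions: it was higher in cerebellum by 0.99 ± 0.10 and in striatum by 0.60 ± 0.10 on the log2 scale, and lower in amygdala, hippocampus and prefrontal cortex. Gss, glutathione synthetase, was higher in cerebellum by 0.68 ± 0.17 (adjusted p = 0.000848) and lower in amygdala by -0.57 ± 0.17 (adjusted p = 0.00969). Its cerebellum mean of 7.26 lay 0.21 above that of hippocampus, a step that did not pass (limma, adjusted p = 0.467). Gss signals were not far above the negative controls, whose medians were higher in cerebellum, at 6.2 to 6.35 against 5.73 to 6.02 elsewhere. The size of its cerebellar difference is therefore uncertain.

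Slc7a11, the light chain of the cystine-glutamate exchanger that brings in cystine for glutathione synthesis, followed another order. In amygdala its 8 arrays ran from 11.27 over a median of 11.91 to 13.16, against 9.13 to 11.78 with a median of 10.52 elsewhere. Amygdala had the highest mean and its lower arrays overlapped those of prefrontal cortex. The log2 difference of amygdala from the other regions was 1.53 ± 0.15 (SE, adjusted p = 1.08e-10), and it was 1.73 without the 6 arrays that stood apart. Slc7a11 was the only one of the 34 genes that reached 1 log2 unit in amygdala (2.94%), against 5.84% of all genes. In cerebellum its arrays ran from 9.13 over 9.82 to 10.07, and in striatum from 9.54 over 9.95 to 10.51. It was lower in cerebellum by -1.31 ± 0.15 (adjusted p = 6.54e-10) and in striatum by -1.09 ± 0.15 (adjusted p = 1.02e-07). Region means fell in the order amygdala, prefrontal cortex, hippocampus, striatum and cerebellum, and each step passed the test except the last, of 0.18 (adjusted p = 0.44). Slc7a11 is also expressed by meningeal cells: 5 of 9 meninges and fibroblast markers were higher in amygdala, 2 in prefrontal cortex, and 5 were lower in striatum. The mean level of that list was 6.29 to 8.84 over amygdala arrays, 6.21 to 8.07 in prefrontal cortex, 6.49 to 6.87 in hippocampus, 6.93 to 7.37 in cerebellum and 5.60 to 6.75 in striatum, and its part in the Slc7a11 pattern was not tested.

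**Figure D2:**
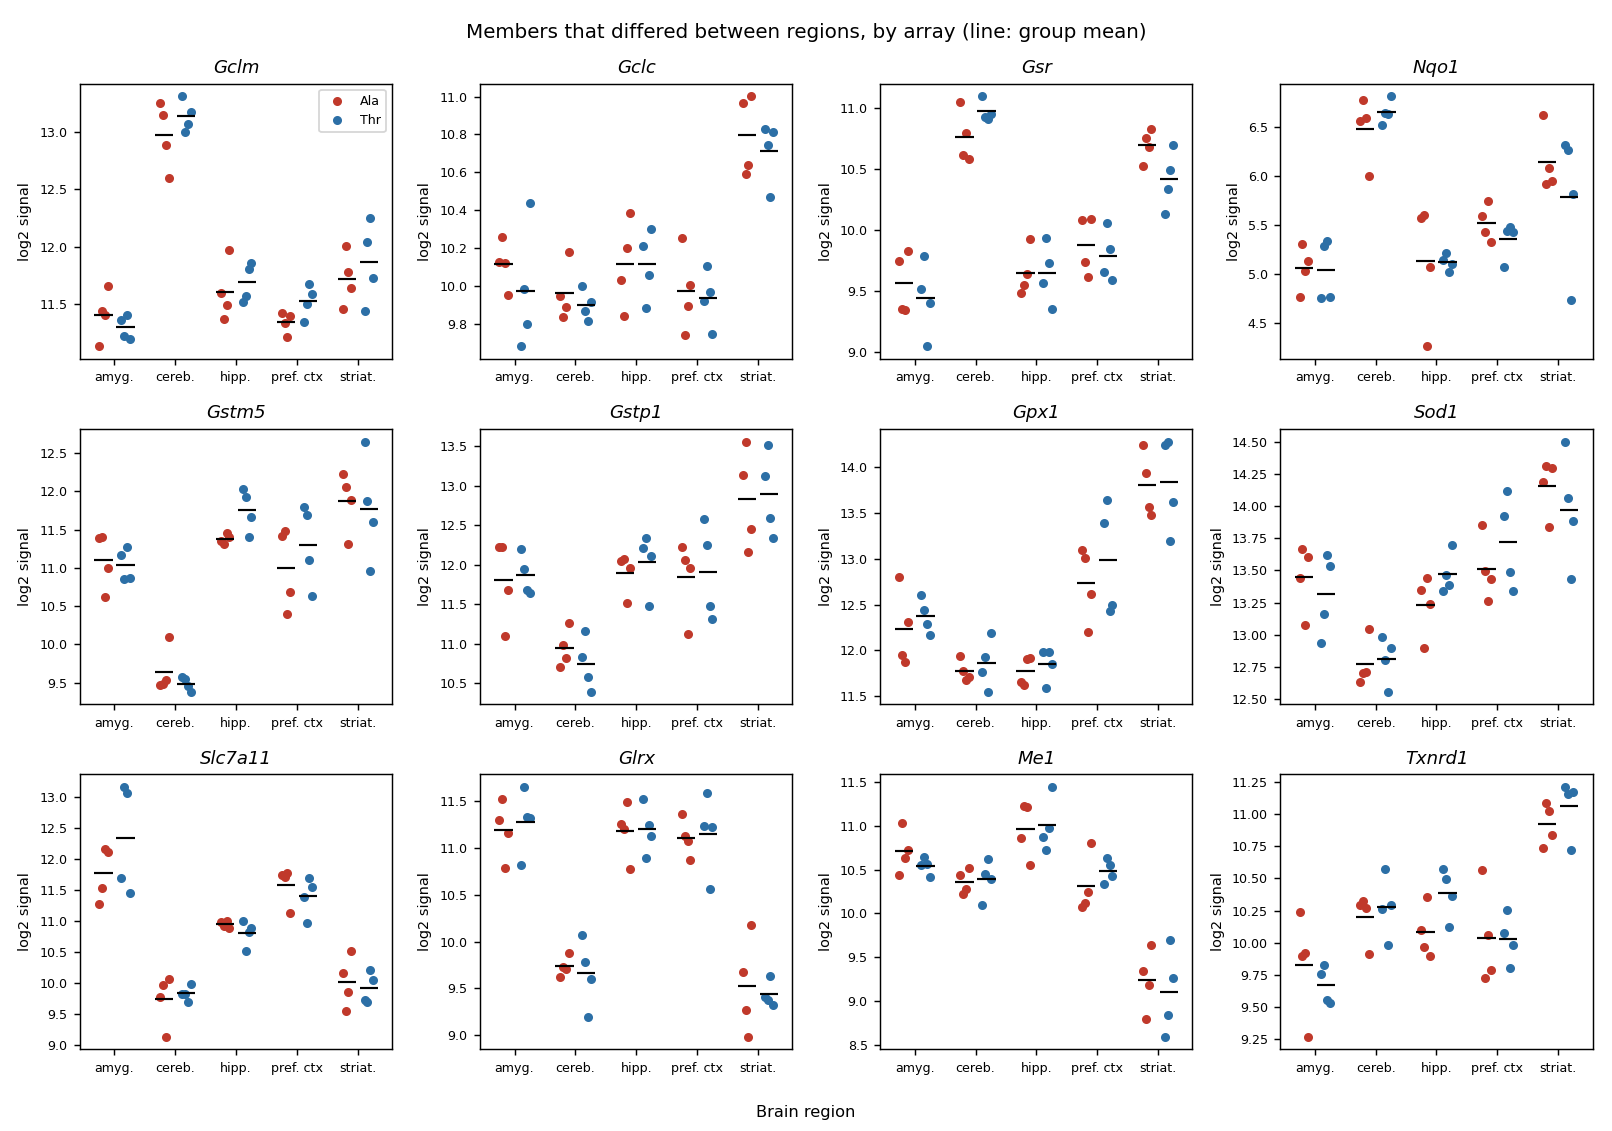
Log2 signal of 12 genes on each array, with Ala points left of Thr points in each region and a line at each mean of 4 arrays; vertical axes differ between genes. Gclm reads 12.60 to 13.31 in cerebellum, apart from all other arrays. Me1 reads lowest in striatum, also apart, while Glrx is low in striatum and cerebellum, whose arrays overlap.

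Among the stress enzymes that NRF2 induces, Nqo1, a quinone reductase, ran from 6.00 over a median of 6.60 to 6.81 in cerebellum, against 4.26 to 6.62 with a median of 5.34 elsewhere. It was above the negative control median of its own array on 7 of 8 cerebellum arrays and 5 of 8 striatum arrays, and on 0 arrays of amygdala, hippocampus and prefrontal cortex, so its level in those 3 regions is known only as a bound. Against that median it lay between -0.357 and 0.526 log2 units in cerebellum, where it was barely above background. The fitted difference of cerebellum from the other regions, 1.17 ± 0.14 on the log2 scale (SE, adjusted p = 3.60e-09), therefore gives a direction and not a size. Hmox1, which degrades heme, and Srxn1, which repairs over-oxidised peroxiredoxins, passed in no contrast of a region with the mean of the others. Between single regions, Srxn1 was lower in hippocampus than in striatum (limma, adjusted p under 0.05). Hmox1 had region means between 5.95 and 6.24, near the negative controls. It read above the negative control median of its own array on 25 of the 40 arrays.

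The thioredoxin system split between regions as well. Txnrd1, the cytosolic thioredoxin reductase, ran from 10.72 over 11.06 to 11.21 in striatum, against 9.27 to 10.58 elsewhere, without overlap. It was higher in striatum by 0.93 ± 0.10 on the log2 scale (adjusted p = 6.19e-10) and lower in amygdala by -0.62 ± 0.10 (adjusted p = 5.31e-06). Txn1, cytosolic thioredoxin, was higher in prefrontal cortex by 0.65 ± 0.10 (adjusted p = 9.11e-07), with arrays at 12.44 to 13.29 against 11.62 to 12.54 elsewhere. The mitochondrial partners Txn2 and Txnrd2 passed in no region. Glrx, a glutaredoxin that reduces proteins bound to glutathione, ran from 8.98 over 9.39 to 10.18 in striatum and from 9.20 over 9.72 to 10.07 in cerebellum, while amygdala, hippocampus and prefrontal cortex ran from 10.56 to 11.65. Glrx was lower in striatum by -1.33 ± 0.12 (adjusted p = 6.04e-12) and in cerebellum by -1.06 ± 0.12 (adjusted p = 1.05e-09). Without array Thr cerebellum 15 the cerebellar difference was -0.98, which keeps its adjusted p but no longer reaches 1 log2 unit.

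Of the 4 glutathione transferases, enzymes that attach glutathione to electrophiles, only Gstm1 did not pass in cerebellum, and the others were lower there. Gstm5 ran from 9.38 over a median of 9.51 to 10.09 there, against 10.39 to 12.65 elsewhere, with no overlap. The log2 difference of -1.84 ± 0.15 (SE, adjusted p = 4.40e-14), a fold of 3.58 lower, was the largest of the 34 genes in any region. Gstp1 was lower in cerebellum, at 10.40 to 11.27 against 11.10 to 13.56 elsewhere, by -1.29 ± 0.16 (adjusted p = 7.36e-09). Gsta4 was lower there by -0.50 ± 0.15 (adjusted p = 0.00306). In striatum Gstp1, at 12.16 to 13.56 against 10.40 to 12.58 elsewhere, was higher by 1.23 ± 0.16 (adjusted p = 4.35e-08), Gstm5 by 0.98 ± 0.15 (adjusted p = 5.77e-07) and Gstm1 by 0.38 ± 0.12 (adjusted p = 0.0075). Gsta4, which detoxifies hydroxynonenal, ran the other way: it was lower in striatum by -0.92 ± 0.15 (adjusted p = 1.29e-06) and higher in amygdala by 0.81 ± 0.15 (adjusted p = 2.13e-05). Mu-class transferases are similar in sequence, and how far the probes separate them is not given in the sources used here.

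In cerebellum as a whole, 6 of the 34 genes reached 1 log2 unit (17.6%), against 18.7% of all genes. Gclm and Nqo1 were higher, against 8.69% of all genes, and Gstm5, Slc7a11, Gstp1 and Glrx lower, against 10.1%. With no fold threshold 16 of the 34 genes passed in cerebellum against 57.5% of all genes, and 11 in amygdala against 32.6%. There 7 of 8 microglia and macrophage markers were lower, with list means of 5.86 to 6.31 in cerebellum against 7.67 to 8.62 in the other regions, and 4 of the 8 fell below the negative control range. All 4 Bergmann glia markers were higher, with list means of 11.2 to 11.8 in cerebellum against 6.96 to 8.44 elsewhere. Astrocyte list means were 12.0 to 12.5 in cerebellum and 11.2 to 12.2 elsewhere. Their part in the cerebellar differences was not tested.

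Of the peroxidases and dismutases, Gpx1 differed most. Gpx1, the cytosolic glutathione peroxidase, ran from 13.19 over a median of 13.78 to 14.28 in striatum, against 11.55 to 13.64 with a median of 11.98 elsewhere. Its lower striatum arrays overlapped the upper arrays of prefrontal cortex and no others. Gpx1 was higher in striatum by a log2 difference of 1.62 ± 0.14 (SE, adjusted p = 2.81e-13), a fold of 3.08, and lower in hippocampus by -0.89 ± 0.14 (adjusted p = 1.35e-06) and in cerebellum by -0.88 ± 0.14 (adjusted p = 4.09e-07). Gpx4, which reduces lipid hydroperoxides, and the endoplasmic reticulum peroxidases Gpx7 and Gpx8 passed in no region against the mean of the others. Between single regions, Gpx4 and Gpx7 were lower in cerebellum than in prefrontal cortex, and Gpx4 also lower than in striatum (limma, adjusted p under 0.05). Gpx7 and Gpx8 read above the negative control median on only 8 and 17 of the 40 arrays.

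Sod1, the cytosolic copper and zinc dismutase, ran from 13.44 over 14.12 to 14.50 in striatum, from 12.56 over 12.76 to 13.04 in cerebellum, and from 12.90 to 14.12 over the remaining regions. It was higher in striatum by 0.78 ± 0.11 on the log2 scale (adjusted p = 9.50e-08) and lower in cerebellum by -0.81 ± 0.11 (adjusted p = 2.09e-08). Sod2, the mitochondrial manganese dismutase, had region means between 13.15 and 13.27 and passed in no contrast. Sod3, the extracellular dismutase, was higher in cerebellum by 0.56 ± 0.16 (adjusted p = 0.00354) and lower in amygdala by -0.41 ± 0.16 (adjusted p = 0.0477). Its region means ran from 6.63 in amygdala to 7.41 in cerebellum, not far above the negative controls. Their medians were themselves higher in cerebellum, at 6.2 to 6.35 against 5.73 to 6.02 elsewhere. The size of the cerebellar Sod3 difference is therefore uncertain. Cat, catalase of the peroxisome, was lower in prefrontal cortex by -0.68 ± 0.17 (adjusted p = 0.00187), with arrays at 11.37 to 12.42. It was higher in cerebellum by 0.49 ± 0.17 (adjusted p = 0.0119) and in hippocampus by 0.48 ± 0.17 (adjusted p = 0.0279).

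Of the 4 peroxiredoxins tested, thiol peroxidases recharged by thioredoxin, none reached 1 log2 unit in a region. Prdx1 and Prdx3 were higher in striatum, by 0.47 ± 0.19 (adjusted p = 0.0366) and 0.35 ± 0.12 (adjusted p = 0.0122). The striatum arrays of Prdx1 were wide apart, from 11.21 to 14.96. Neither step from striatum to the next region passed: Prdx1 over prefrontal cortex by 0.14 (limma, adjusted p = 0.708) and Prdx3 over cerebellum by 0.17 (adjusted p = 0.347). Prdx2 was higher in prefrontal cortex by 0.39 ± 0.10 (adjusted p = 0.00322). Prdx4 was higher in prefrontal cortex by 0.34 ± 0.11 (adjusted p = 0.0248), and lower in hippocampus by -0.35 ± 0.11 (adjusted p = 0.0193) and in striatum by -0.29 ± 0.11 (adjusted p = 0.0357).

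Of the genes that supply NADPH, Me1 was the most regional. Me1, cytosolic malic enzyme, ran from 8.59 over a median of 9.22 to 9.70 in striatum, against 10.07 to 11.45 with a median of 10.55 elsewhere, and no striatum array overlapped the rest. It was lower in striatum by a log2 difference of -1.43 ± 0.11 (SE, adjusted p = 9.27e-14) and higher in hippocampus by 0.84 ± 0.11 (adjusted p = 1.31e-07). Taldo1, transaldolase of the pentose phosphate pathway, was higher in striatum by 0.49 ± 0.12 (adjusted p = 0.000598), at signals near the negative controls. Pgd, phosphogluconate dehydrogenase, was higher in amygdala by 0.29 ± 0.11 (adjusted p = 0.0357). Fth1, the ferritin heavy chain that stores iron, passed in no region, and its mean lay 0.64 log2 units under the highest value of any row, where a difference may be compressed.

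In striatum, 5 of the 34 genes reached 1 log2 unit (14.7%), against 10.9% of all genes. Gpx1 and Gstp1 were higher, against 5.71% of all genes, and Me1, Glrx and Slc7a11 lower, against 5.2%. With no fold threshold 18 of the 34 passed there against 44% of all genes, 12 of them higher against 20.8% and 6 lower against 23.2%. All 11 oligodendrocyte and myelin markers were higher in striatum, with list means of 12.5 to 13.3 in striatum against 8.00 to 12.2 elsewhere. Microglia markers (3 of 8), choroid plexus markers (4 of 9) and liver markers (6 of 10, with 9 of 13 listed genes below the negative control range) were also higher there. The liver and choroid plexus lists share Ttr. Astrocyte list means were 11.2 to 11.6 in striatum, with the lowest median of the regions, and 11.3 to 12.5 elsewhere. In amygdala all 11 oligodendrocyte markers were lower, with list means of 8.00 to 10.5. The part of these cell types in the striatal and amygdalar differences was not tested.

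No gene reached 1 log2 unit in hippocampus or prefrontal cortex, against 5.91% and 5.21% of all genes. With no fold threshold limma passed 10 of the 34 genes in hippocampus against 27.9% of all genes, and 12 in prefrontal cortex against 25.8%. At an unadjusted p under 0.05 it gave 12 in hippocampus against 36.4%, and 13 in prefrontal cortex against 35%. Fitted on Ala arrays alone and on Thr arrays alone, the differences had the same direction for each of the 12 region differences that reached 1 log2 unit. Gclm in cerebellum, for example, differed by 1.45 in Ala arrays and by 1.54 in Thr arrays, and Gpx1 in striatum by 1.68 in Ala arrays and 1.57 in Thr arrays. For Slc7a11 in striatum, the Ala arrays alone gave -0.99, just short of the threshold.

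Between genotypes, none of the 34 genes passed in any region. Ala minus Thr differences that passed numbered 0 of 34 in amygdala, cerebellum, hippocampus, prefrontal cortex and striatum, in the mean of the 5 regions, and in the test of whether the difference varies between regions (limma, adjusted p under 0.05). Among all genes 0.12% passed in amygdala, 0% in cerebellum, 0% in hippocampus, 0% in prefrontal cortex, 0.0801% in striatum, 0.02% in the mean and 0.0401% in the test between regions. At an unadjusted p under 0.05, limma gave 1 of the 34 genes in amygdala against 5.33% of all genes. It gave 0 in cerebellum against 1.94%, 0 in hippocampus against 3.14%, 0 in prefrontal cortex against 2.33% and 4 in striatum against 6.14%. In the mean over regions it gave 0 against 5.37% of all genes, and in the test between regions 1 against 2.68%. The standard error of an Ala minus Thr difference in 1 region lay between 0.143 for Fth1 and 0.370 for Gpx8, and a p that misses the threshold does not show that the levels were equal.

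**Figure D3:**
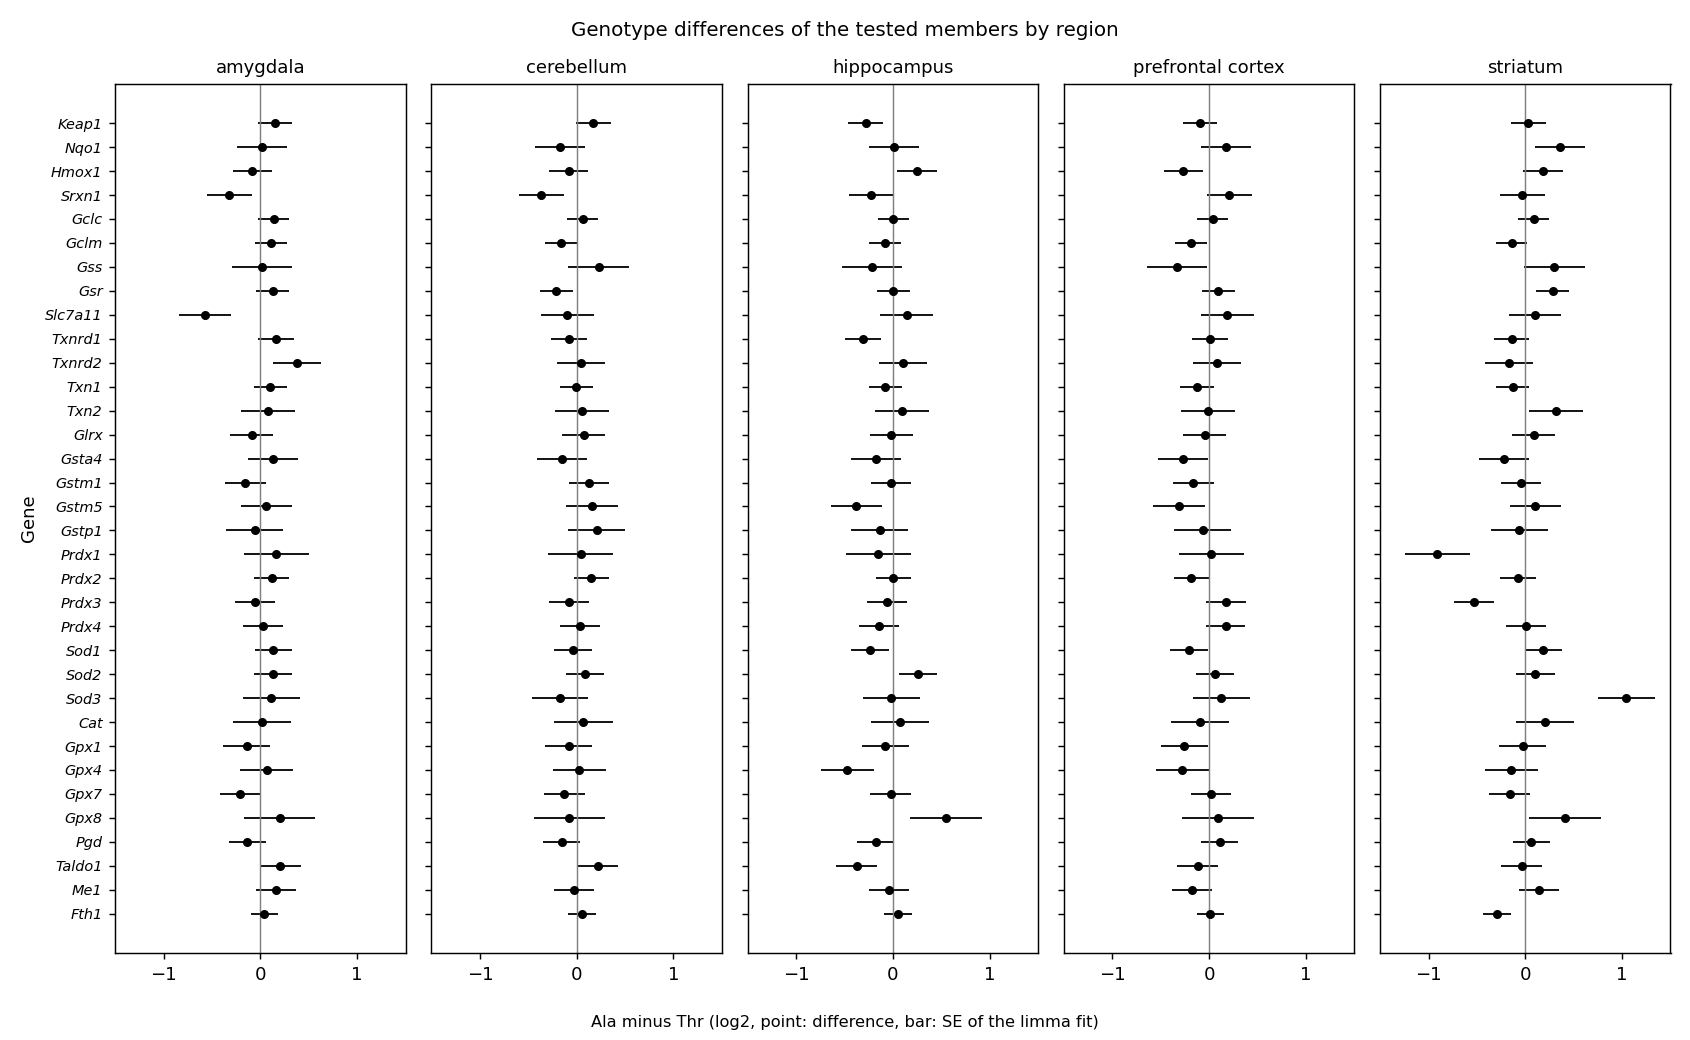
Ala minus Thr difference on the log2 scale of the 34 tested genes in each region, with 1 SE of the limma fit as bars (4 arrays per group). No difference passed the test; Sod3 at 1.04 and Prdx1 at -0.91 in striatum lie furthest out.

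Median differences of the 34 genes ran from -0.0489 in hippocampus to 0.0719 in amygdala, against medians of 0.00581 in hippocampus and 0.00551 in amygdala over all genes. Positive differences numbered 24 of 34 in amygdala, 17 in cerebellum, 12 in hippocampus, 16 in prefrontal cortex and 18 in striatum, against 51.1%, 50.9%, 51.1%, 50.7% and 53.8% of all genes in that order of regions. Gclc and Sod2 had positive differences in all 5 regions and Gpx1 negative ones, 3 of 34 genes (8.82%) against 7.98% of all genes.

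The largest difference was that of Sod3, the extracellular superoxide dismutase, in striatum. Sod3 read 7.05, 7.82, 7.31 and 8.38 on the Ala arrays, against 5.55, 7.02, 6.59 and 7.23 on the Thr arrays. Ala arrays were mostly higher, 1 Thr array at 7.23 lay above the lowest Ala array, and Thr array 37 at 5.55 stood well below the rest. The log2 difference of 1.04 ± 0.29 did not pass (SE, limma, adjusted p = 0.394), and in the mean of the 5 regions it was 0.22 ± 0.13 (adjusted p = 0.985). In striatum it was 0.70 without array Thr striatum 37, 0.45 without the 6 arrays and 0.80 without the 7, and in the mean of regions 0.12 without the 6. The test of whether the Sod3 difference varies between regions did not pass either (limma, adjusted p = 1). Choroid plexus scores in striatum ran from -0.123 to 2.78 in Ala arrays and from -1.62 to -0.668 in Thr arrays, without overlap, and with that score as a covariate the Sod3 difference was 0.88 ± 0.33 (adjusted p = 1). Liver scores did not overlap there either and ran the other way, from -0.717 to -0.0966 in Ala arrays and from -0.0188 to 1.54 in Thr arrays. The liver score was not used as a covariate.

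Prdx1 in striatum was decided by 1 array. It read 14.51, 13.67, 13.82 and 11.21 on the Ala arrays, against 14.96, 14.13, 13.76 and 14.00 on the Thr arrays. Ala array 36 at 11.21 was lower than every other array of the series for this gene, and the remaining arrays overlapped. The log2 difference of -0.91 ± 0.33 (limma, adjusted p = 0.704) was -0.21 without Ala striatum 36, 0.04 without the 6 arrays and -0.21 without the 7. Fth1 followed the same array: it read 19.70, 19.21, 19.44 and 18.65 on the Ala arrays, against 19.69, 19.52, 19.57 and 19.39 on the Thr arrays, and its difference of -0.29 ± 0.14 (adjusted p = 0.806) was -0.09 without Ala striatum 36 or without the 7 arrays, -0.04 without the 6 and -0.44 without Ala striatum 33.

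Prdx3, the mitochondrial peroxiredoxin, read 10.09, 9.51, 10.53 and 10.86 on the Ala striatum arrays, against 11.30, 10.60, 10.41 and 10.79 on the Thr arrays. Array 37 was the highest and Ala array 34 the lowest, and the groups overlapped. Its difference was -0.53 ± 0.21 (adjusted p = 0.738), -0.28 without Ala striatum 34 and -0.73 without the 7 arrays. Thr striatum 37 was also the lowest striatum array for Cat, at 10.33 against 11.98 to 12.51 on the Ala arrays, and for Txn2, at 10.16 against 11.01 to 12.55. Cat differed by 0.21 ± 0.30 with all arrays and by -0.44 ± 0.23 without the 6 arrays that stood apart, and Txn2 by 0.32 ± 0.28 and -0.37 ± 0.22, so both turned direction and passed neither time. Without the 7 arrays they differed by 0.16 and 0.04.

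**Figure D4:**
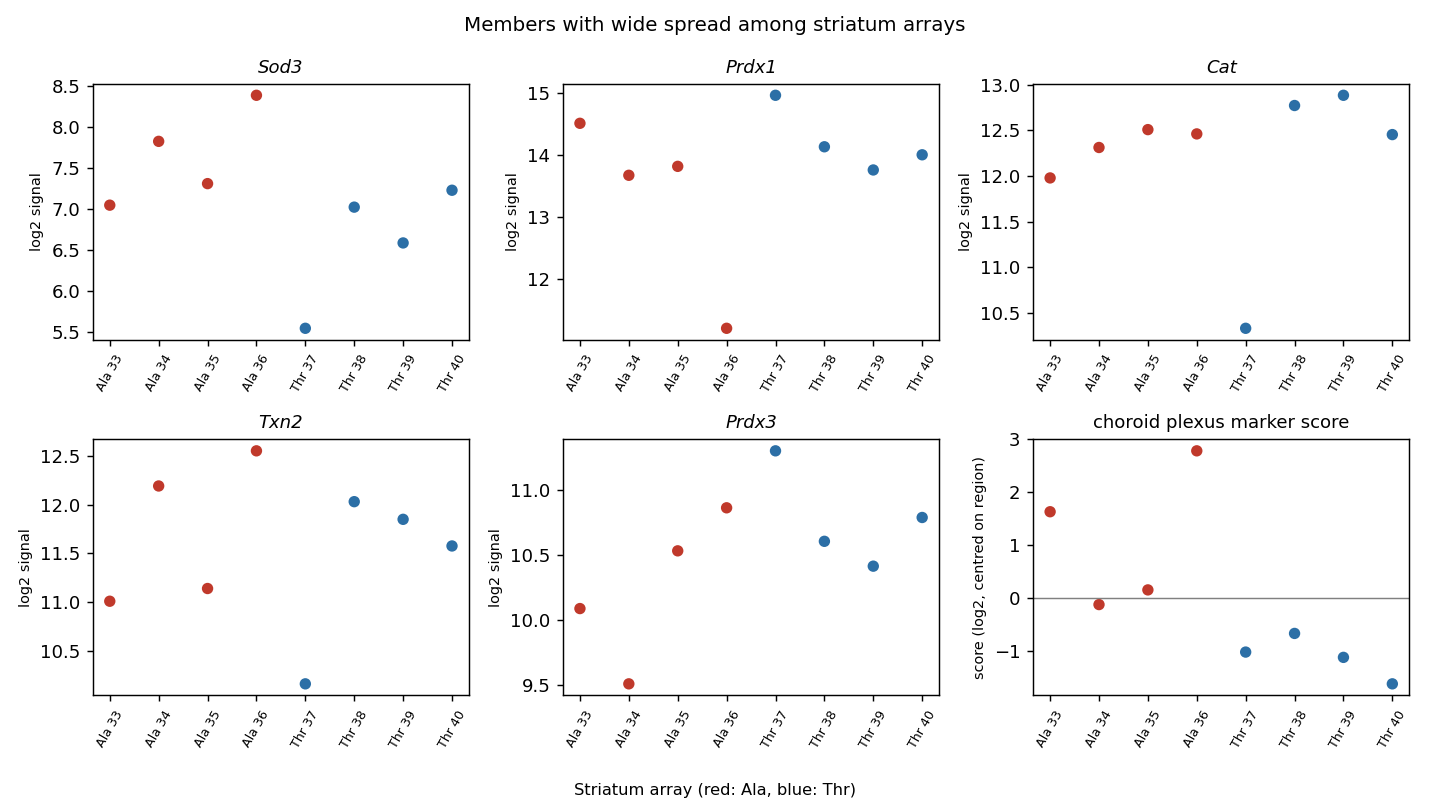
Log2 signal of 5 genes, and the choroid plexus marker score, on the 8 striatum arrays, Ala (red) left of Thr (blue). Ala 36 reads 11.21 for Prdx1 and has the highest choroid plexus score, 2.78, while Thr 37 reads lowest for Sod3, Cat and Txn2.

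In amygdala, Slc7a11 had the smallest p of the 34 genes. It read 11.27, 11.54, 12.16 and 12.12 on the Ala arrays, against 11.70, 13.16, 13.06 and 11.45 on the Thr arrays. Thr arrays 6 and 7 were above all Ala arrays, and Thr arrays 5 and 8 lay among them. The log2 difference was -0.57 ± 0.27 (SE, limma, adjusted p = 0.923), -0.30 without array Thr amygdala 6 and -0.87 without Thr amygdala 8. The same arrays, Thr 6 and 7, had the highest meninges and fibroblast scores of the amygdala, 0.745 and 1.30, where the Ala arrays ran from -1.09 to 0.484. With that score as a covariate the difference was -0.53 ± 0.22 (adjusted p = 0.780), and without the 6 or the 7 arrays it was -0.205. Txnrd2, mitochondrial thioredoxin reductase, came next: it read 8.51, 7.83, 8.33 and 8.33 on the Ala arrays, against 7.94, 7.87, 7.63 and 8.04 on the Thr arrays. Ala array 2 lay among the Thr arrays and the others above them, and the difference of 0.38 ± 0.25 did not pass (adjusted p = 1). Without the 6 arrays, which include Ala 1 and 2, it was 0.455.

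**Figure D5:**
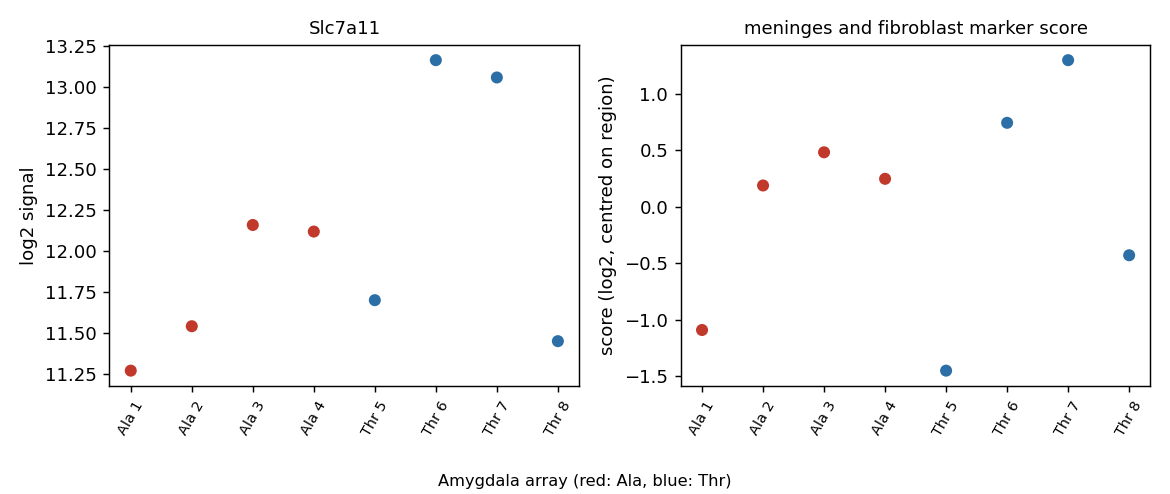
Log2 signal of Slc7a11 (left) and the meninges and fibroblast marker score centred on the region (right) for the 8 amygdala arrays, Ala (red) left of Thr (blue). Thr 6 and Thr 7 are highest in both panels, at 13.16 and 13.06 for Slc7a11.

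In cerebellum, Srxn1 read 9.16, 8.85, 9.07 and 8.43 on the Ala arrays, against 9.35, 9.18, 9.22 and 9.22 on the Thr arrays. Every Ala array was below every Thr array, as for 1.32% of all genes in this region, and the difference of -0.37 ± 0.23 did not pass (limma, adjusted p = 1). It was -0.22 without array Ala cerebellum 12 and -0.13 without the 7 arrays. Gsr read 11.05, 10.62, 10.80 and 10.59 on the Ala arrays, against 11.10, 10.93, 10.92 and 10.95 on the Thr arrays. Ala array 9 lay among the Thr arrays, and the difference was -0.21 ± 0.17 (adjusted p = 1), and -0.05 without the 7 arrays. Prdx2 was the only gene with every Ala array higher here, at 13.86 to 13.99 on the Ala arrays and 13.68 to 13.84 on the Thr arrays, as for 1.35% of all genes.

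In hippocampus, Gpx4 read 12.78, 12.67, 12.49 and 12.02 on the Ala arrays, against 13.02, 12.84, 12.87 and 13.12 on the Thr arrays. Every Ala array was lower, as for 1.32% of all genes in this region, and the difference was -0.47 ± 0.27 (limma, adjusted p = 1), and -0.31 without array Ala hippocampus 20. Taldo1 read 5.79, 6.12, 5.93 and 6.10 on the Ala arrays, against 5.98, 6.73, 6.18 and 6.56 on the Thr arrays, with Thr array 21 among the Ala arrays. Its difference was -0.37 ± 0.21 (adjusted p = 1), and -0.24 without the 7 arrays, at signals within or near the negative control range. Sod2 read 13.59, 13.39, 13.35 and 13.26 on the Ala arrays, against 13.10, 13.22, 13.12 and 13.10 on the Thr arrays, all Ala arrays being higher, as for 1.42% of all genes. The Sod2 difference was 0.26 ± 0.20 in hippocampus and 0.13 ± 0.09 in the mean over regions (adjusted p = 0.990), where it was 0.08 without the 6 arrays and 0.09 without the 7.

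In prefrontal cortex, Hmox1 read 5.99, 5.89, 5.86 and 6.13 on the Ala arrays, against 6.55, 6.54, 5.84 and 6.00 on the Thr arrays. Thr arrays 29 and 30 were above all Ala arrays, Thr array 31 was just below them and Thr array 32 lay among them, all near the negative controls, and the difference was -0.27 ± 0.20 (limma, adjusted p = 1), and -0.16 without array Thr prefrontal cortex 29. Gstm5 read 11.41, 11.49, 10.39 and 10.69 on the Ala arrays, against 11.80, 11.69, 11.10 and 10.63 on the Thr arrays, with overlap, and differed by -0.31 ± 0.27 (adjusted p = 1). It differed by -0.11 without array Ala prefrontal cortex 27 and by -0.53 without Thr prefrontal cortex 32. Olfactory bulb list means ran from 6.97 to 10.4 over the prefrontal arrays, against 4.06 to 5.89 in the other regions, and their part in the prefrontal values was not tested.

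Gpx3, a secreted glutathione peroxidase outside the 40 genes, did pass between genotypes in amygdala, with an Ala minus Thr log2 difference of -2.76 ± 0.38 (limma, adjusted p = 0.000152). The gene was named because this difference was known beforehand. No fit of Gpx3 without the arrays that stood apart is given, and Ala amygdala 1 and 2 are among them. The 4 glutathione peroxidases among the 34 genes differed there by -0.21 to 0.20 and none passed.

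Other genes of the same pathways were read from lists beside these 40. Of 12 tested genes that control or partner NRF2, 0 passed between genotypes and 1 reached 1 log2 unit in a region, in striatum, against 10.9% of all genes: Gsk3b, a kinase that marks NRF2 for degradation, was higher in striatum by 1.01 ± 0.07 (limma, adjusted p = 1.76e-16). Nfe2l1, the related factor NRF1, was lower in cerebellum by -0.69 ± 0.10 (adjusted p = 2.07e-07) and higher in striatum by 0.58 ± 0.10 (adjusted p = 9.89e-06). Of 19 further NRF2 targets, 0 passed between genotypes, and in cerebellum 2 were higher and 1 lower by at least 1 log2 unit, against 8.69% and 10.1% of all genes. In striatum 1 was higher and 1 lower, against 5.71% and 5.2%. Cbr3, a carbonyl reductase, was higher in striatum by 1.90 ± 0.14 (adjusted p = 3.95e-15) and lower in cerebellum by -1.21 ± 0.14 (adjusted p = 4.94e-10). Slc6a9, a glycine transporter, was higher in cerebellum by 1.86 ± 0.14 (adjusted p = 7.48e-15). Aox1, aldehyde oxidase, and Slc3a2, the heavy chain that pairs with Slc7a11, had the smallest p of that list for the mean of regions, at Ala minus Thr differences of 0.24 ± 0.09 (adjusted p = 0.861) and 0.14 ± 0.08 (adjusted p = 0.985).

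Of 31 further glutathione genes, Gpx3 alone passed between genotypes, in amygdala and in the test between regions. By at least 1 log2 unit, 2 of the 31 differed in amygdala against 5.84% of all genes, 5 in cerebellum against 18.7%, 3 in hippocampus against 5.91%, 2 in prefrontal cortex against 5.21% and 3 in striatum against 10.9%. Gpx6, a glutathione peroxidase, was higher in striatum by 4.04 ± 0.15 (adjusted p = 2.92e-24), and Gpx3 was higher in amygdala by 2.68 ± 0.21 (adjusted p = 4.39e-13). The Gpx3 value is a mean over both genotypes, which differed there, and the amygdala arrays ran from 7.87 over a median of 9.36 to 12.12. In the mean of regions Gpx3 had an Ala minus Thr difference of -0.64 ± 0.17 (adjusted p = 0.505) and Mgst1, a microsomal transferase, of -0.29 ± 0.13 (adjusted p = 0.877). Of 27 further redox and NADPH genes, 0 passed between genotypes, and 4 were higher and 3 lower in cerebellum by at least 1 log2 unit, against 8.69% and 10.1% of all genes. H6pd, which makes NADPH in the endoplasmic reticulum, was higher in cerebellum by 1.96 ± 0.13 (adjusted p = 2.82e-16). Oxr1, an oxidation resistance gene, was lower in striatum by -2.60 ± 0.17 (adjusted p = 9.93e-17). Txnl1, a thioredoxin-like protein, and Aldh2, mitochondrial aldehyde dehydrogenase, had mean Ala minus Thr differences of -0.23 ± 0.08 (adjusted p = 0.849) and 0.24 ± 0.11 (adjusted p = 0.905).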

How the data were processed

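The deposited table holds log2 values that the authors made with RMA, per the submitters' processing notes, a method that removes background, brings arrays to a common scale and combines the probes of a row. The RMA software version is not given in the sources used here. Values were used without further scaling. The 28846 rows held 6640 controls and 19572 rows with a gene symbol. The fit took in all 40 arrays, estimated 10 group means and left 30 residual degrees of freedom, using lmFit and trended eBayes of limma 3.58.1 (R 4.3.3). P-values were Benjamini-Hochberg adjusted over 14978 genes. Gene positions and promoter windows come from RefSeq tables of GRCm38.p6. The number of arrays limits the precision. The 40 genes, the gene lists, the 6 arrays that stood apart and the tests were chosen with earlier results of these data known.

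Values on every array are given for the 2 genes with the smallest p in each genotype comparison, and the lowest, median and highest of 8 arrays for Keap1 and, per region, for up to 3 genes each with the largest positive and negative differences of at least 1 log2 unit. Gpx3 was named for its known amygdala difference. From each list of other pathway genes, the 2 with the smallest p for the mean of regions and the 2 largest region differences are named. Some further genes were named after their values were seen. The steps were tested on simulated data. No array was identical to another.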

Additional observations from a re-analysis of the deposited data

Results flagged for a closer look

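In 7 groups of arrays, the highest or the lowest array stood apart from the rest by more than Dixon's critical value allows. Of 80 groups checked, chance alone flags about 1 in 20. Gstm5 in cerebellum read 10.09 on array Ala 12, where the next array read 9.57. Array Ala 12 was also lowest of the cerebellum for Nqo1, at 5.996, next to 6.52. Nqo1 read 4.264 on array Ala 19 in hippocampus, next to 5.02, and 4.737 on array Thr 39 in striatum, next to 5.81, both below the negative control medians. Slc7a11 read 9.129 on array Ala 11 in cerebellum, next to 9.70, and 10.52 on array Thr 22 in hippocampus, next to 10.82. Keap1 read 8.791 on array Thr 14, the highest of the 4 Thr cerebellum arrays, next to 8.47.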

How the results depend on the processing

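The count of 0 genes that passed between genotypes held under every alternative: 15 for each region and 19 each for the mean of regions and the test between regions, besides leaving out each of the 40 arrays. These covered scaling, the filter on dim genes, rows and spread, array weights, an adjusted p under 0.10, marker scores as covariates, and regions left out. The meninges score as a covariate and the fits without 6 and without 7 arrays were chosen after seeing the data. With no fold threshold, 11, 16, 10, 12 and 18 of the 34 genes passed in amygdala, cerebellum, hippocampus, prefrontal cortex and striatum, in place of 1, 6, 0, 0 and 5. Leaving out 1 array gave 1 gene in amygdala, 5 to 7 in cerebellum, 0 in hippocampus, 0 in prefrontal cortex, 5 to 6 in striatum and 23 to 25 in the F-test. The longer promoter core was held by 2 genes in place of 10. No direction among the region differences that reached 1 log2 unit reversed. No paired analysis of regions was possible, because replicate numbers run from 1 to 40 without repeat and no label links arrays of 1 mouse. Arrays of different regions were fitted as independent, although some may come from the same mouse. The order of arrays within a group was not in the fit either. For Gstp1, in every group but Ala cerebellum, the first 2 arrays read above the last 2. In Thr striatum they read 13.12 and 13.51 against 12.59 and 12.33. How far such an order widened the standard errors of the genotype differences was not tested. Nfe2l2, Osgin1 and other dim genes are limited by signal over background, and Fth1 by its closeness to the top of the range.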
